A study of Mus musculus with 8 samples.

Results

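The sequences described here are small RNA reads that occur at several places in the mouse genome and carry no miRNA or tRNA annotation. They were chosen from a table of 11568 distinct read sequences by 2 properties recorded there, an empty annotation hit and at least 2 genomic matches. Of 9761 sequences without a hit, 851 had 2 or more genomic matches, and 89 of these were left out. Those 89 lay 1 substitution from, or were a 3′ extension of up to 3 bases of, a sequence with a miRNA or tRNA hit. The remaining 762 sequences are the members of the set. None of the measured counts entered the choice. At the edge of the rule, 1451 sequences without a hit had 1 genomic match and 329 had exactly 2, before the exclusion.

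The RNA came from a mouse insulinoma line, named MIN6B1 in the cell line label and MIN6 in the sample titles, transfected by lipofection with either a control plasmid or one expressing the HENMT1ΔC-T6B methyltransferase. For each plasmid, RNA was sequenced either non-oxidized, with H2O in the library name, or after oxidation. This gave 4 groups of 2 libraries: control non-oxidized, control oxidized, methyltransferase non-oxidized and methyltransferase oxidized. No source used here says whether the 2 libraries of a group came from separate cultures, so p-values measure only the spread between these libraries, which may be technical. Oxidation with periodate attacks the free pair of hydroxyl groups at the 3′ end of an RNA and blocks adapter ligation, while a 2′-O-methyl group at that position protects the RNA. HENMT1 is the enzyme that adds this group to small RNAs in animals, and T6B is a peptide that binds Argonaute proteins.

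Multi-copy sequences without annotation can come from ribosomal RNA, whose genes lie in tandem arrays, from small nucleolar RNAs (snoRNAs, guides of RNA modification) with duplicated genes, from nuclear copies of mitochondrial sequence, or from interspersed and simple repeats. Fragments of one RNA often share a 5′ end and stop at different 3′ ends. Whether oxidation blocks cloning depends on the hydroxyl groups at the 3′ end. Members that shared 14 or more consecutive bases were therefore joined into runs, each called by one of its sequences. The 762 sequences formed 125 such runs, 54 of them with a single sequence.

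The sequences that carry the main differences are printed here as deposited, 5′ to 3′. The first set shows sequences built from TG repeats beside mature miR-574-5p, with bases 2 to 8 in capitals, which is the seed of the miRNA (RefSeq, GRCm38.p6).
miR-574-5p: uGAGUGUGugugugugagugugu
seq9564: tGAGTGTGtgtgtgagtgt
seq9568: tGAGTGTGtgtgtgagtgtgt
seq9622: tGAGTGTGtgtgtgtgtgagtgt

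The second set shows pairs with the same 5′ end and different 3′ ends, which behaved differently under oxidation. Capitals mark the 3′ bases that the shorter sequence of the pair lacks.
seq7367: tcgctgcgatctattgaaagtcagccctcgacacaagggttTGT
seq7366: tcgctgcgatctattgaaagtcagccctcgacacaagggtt
seq1617: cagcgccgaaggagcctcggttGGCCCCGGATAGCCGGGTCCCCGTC
seq1604: cagcgccgaaggagcctcggtt
seq1793: ccacgaggacgagacgtagcG
seq1792: ccacgaggacgagacgtagc

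The third set shows near-complete snoRNAs of the Snord50 pair. Capitals again mark the 3′ base that the shorter form lacks.
seq950: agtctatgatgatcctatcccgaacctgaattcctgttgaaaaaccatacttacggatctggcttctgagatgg
seq951: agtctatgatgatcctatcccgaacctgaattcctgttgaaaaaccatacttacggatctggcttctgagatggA
seq945: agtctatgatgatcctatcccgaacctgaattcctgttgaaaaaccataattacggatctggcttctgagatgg

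The members were 16 to 80 nt long, with a median of 23 nt, and had 2 to 1544 genomic matches, with a median of 3. By length, 230 were of 16-19 nt, 190 of 20-24, 143 of 25-30, 111 of 31-40, 42 of 41-50 and 46 of over 50. By genomic matches, 312 had 2, 206 had 3-5, 144 had 6-20, 72 had 21-100 and 28 had over 100. Most were rare: 480 of the 762 had a mean of fewer than 10 counts per library. An exact match to the sense strand of a GENCODE M21 transcript was found for 391 of the 762 (51.31%), against 1125 of 1399 (80.41%) of the unannotated sequences with a single genomic match.

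By the match to transcripts, 314 members lay in the 18S ribosomal RNA locus on chromosome 17, 60 in snoRNAs, 52 in 5S ribosomal RNA, 25 in mitochondrial tRNAs, 39 in protein-coding genes and 11 in small nuclear RNAs. Smaller classes were 6 in 7SL or 7SK RNA, 6 in gene models of miRNA type, 8 antisense to a transcript, 11 in long non-coding RNAs or pseudogenes and 1 in the Y RNA Rny1. The other 229 matched no transcript. Where several loci share a sequence, the locus that made the RNA cannot be told, and the gene names below give the possible sources.

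The listed sequences held between 295094 and 6641250 counts per library, lowest in both oxidized control libraries. No listed sequence has fewer than 2 counts in a methyltransferase oxidized library or fewer than 10 over both, so the listing favours sequences seen there. A count of 0 allows a share of up to 0.000684% and 0.00102% of listed counts in the oxidized control libraries (3 counts, counting error only). Of the beta-cell miRNAs, miR-375-3p had 567527 and 559007 counts in the control non-oxidized libraries and miR-7a-5p had 314142 and 467026. Of 8 markers of other cell types, 6 were absent from the table, while the liver miRNA miR-122-5p (463 and 183 counts) and the endothelial miR-126a-3p (248 and 311) were present.

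The members took a larger share of listed counts in oxidized control RNA than in any other group. They held 0.873% and 0.744% in the control non-oxidized libraries, 3.61% and 4.43% in the control oxidized libraries, 1.18% and 1.13% in the methyltransferase non-oxidized libraries and 0.358% and 0.610% in the methyltransferase oxidized libraries. The 4 pairs of groups compared did not overlap, but 2 libraries against 2 cannot reach a p below 0.333 in an exact two-sided permutation test, and each gave p = 0.333 (adjusted p = 0.381 over 8 tests). Without seq7367, the shares became 0.344% and 0.265%, 3.61% and 4.43%, 0.538% and 0.445%, and 0.357% and 0.610%, in the same order. The methyltransferase oxidized and non-oxidized groups then overlapped (exact two-sided permutation p = 1).

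**Figure D1:**
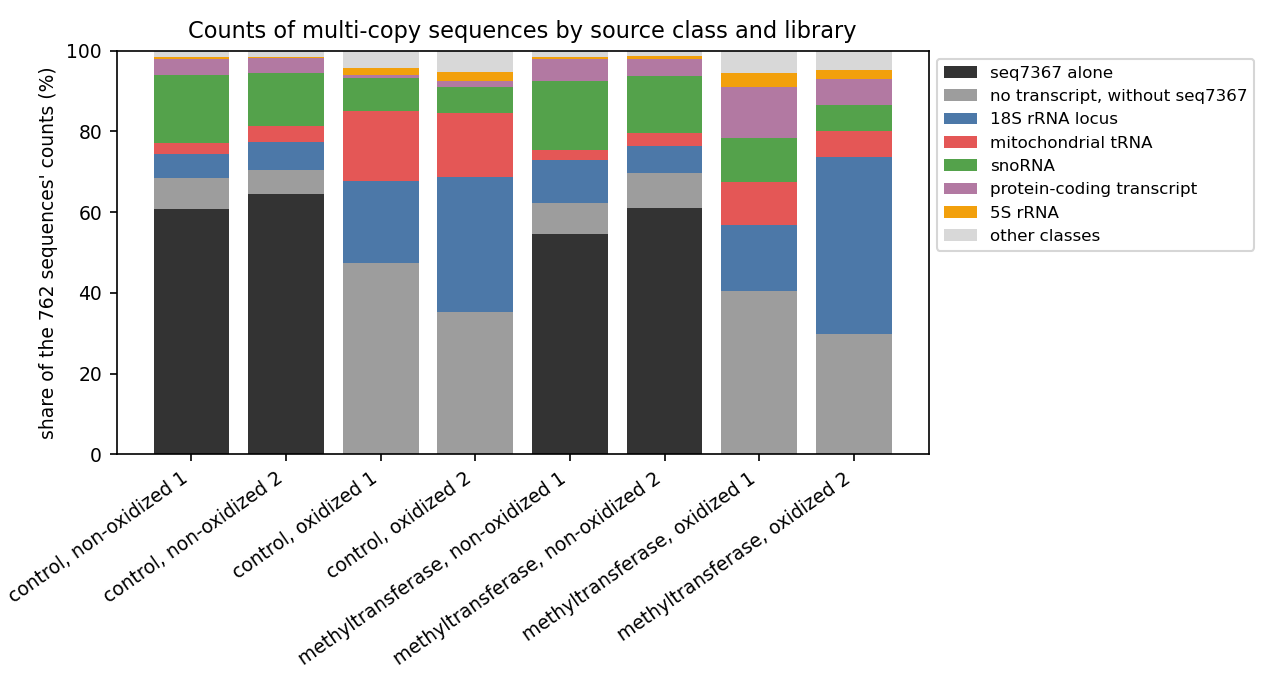
Share of the counts of the 762 sequences (percent, y axis) in each source class for each of the 8 libraries (x axis); seq7367 is drawn apart from the other sequences without a transcript. It fills 54.6% to 64.6% of the bars of the 4 non-oxidized libraries and is not visible in the oxidized ones.

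One sequence, seq7367, dominated the non-oxidized libraries. It is 44 nt long with 2 genomic matches and no transcript match. Its letters are those known from the 3′ end of 28S ribosomal RNA, but no 28S sequence was used here, so the name rests on background knowledge. It had 28622 and 31926 counts in control non-oxidized RNA, 1 and 10 in control oxidized RNA, 23539 and 33737 in methyltransferase non-oxidized RNA and 14 and 2 in methyltransferase oxidized RNA. Both oxidized groups lay far below both non-oxidized groups with no overlap. It fell by 12.67 on the log2 scale with oxidation in control RNA (SE 1.03, edgeR quasi-likelihood adjusted p = 1.2e-06) and fell by 12.08 in methyltransferase RNA (SE 1.00, adjusted p = 2.4e-05).

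Sequences of the same run that lack its last 3 bases behaved in the opposite way. The 41-nt seq7366 had 104 and 94 counts in control non-oxidized RNA, 550 and 329 in control oxidized RNA, 83 and 190 in methyltransferase non-oxidized RNA and 366 and 330 in methyltransferase oxidized RNA. Both oxidized groups were above both non-oxidized groups. It rose in control RNA (log2 fold change 1.74, SE 0.44, edgeR adjusted p = 0.00464), a call lost without control non-oxidized replicate 2. The count of seq7367 was 275 and 340 times that of seq7366 in the control non-oxidized libraries and 0.00182 and 0.0304 times it in the control oxidized libraries. In methyltransferase RNA, the ratio was 284 and 178 before oxidation and 0.0383 and 0.00606 after it. These ratios do not depend on how the libraries are scaled. The pair was chosen after its values were seen and the ratios are given with no test.

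The run of seq7367 held 24 sequences, grouped here by their 3′ end. Some share a 3′ end and differ at the 5′ end, such as seq7366 and seq4730. The 5 sequences ending ...gggtt, 39 to 43 nt long, summed to 458 and 414 counts in control non-oxidized RNA, 2069 and 983 in control oxidized RNA, 297 and 656 in methyltransferase non-oxidized RNA and 1318 and 1227 in methyltransferase oxidized RNA. The 18 sequences with other 3′ ends summed to 274 and 319, 846 and 728, 128 and 184, and 448 and 392 counts in the same order. Both sums were higher after oxidation with either plasmid, with no overlap, while the 1 sequence with the full 3′ end was nearly lost. Among the most abundant of the first kind, seq4730 (39 nt) had 197 and 186, 726 and 300, 115 and 197, and 434 and 368 counts, and its rise in control RNA did not pass the test (log2 fold change 0.97, SE 0.41, edgeR adjusted p = 0.0587).

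A second run with letters known from the 3′ region of 28S ribosomal RNA held 36 sequences, of which 35 were fitted. Of all sequences fitted, 18.4% rose and 46.4% fell with oxidation in control RNA, and 1.77% and 11.2% did in methyltransferase RNA. In this run, 6 rose and 5 fell in control RNA, and 1 rose and 6 fell in methyltransferase RNA (edgeR, adjusted p under 0.05). Its longest form, seq1617 (47 nt), had 558 and 433 counts in control non-oxidized RNA, 4 and 2 in control oxidized RNA, 713 and 1247 in methyltransferase non-oxidized RNA and 91 and 27 in methyltransferase oxidized RNA. Its 22-nt form seq1604 had 42 and 40, 191 and 175, 35 and 46, and 193 and 93 counts in that order. The long form thus fell and the short form rose. In control RNA, the log2 fold changes with oxidation were -7.71 (SE 0.70, edgeR adjusted p = 2.6e-06) and 1.80 (SE 0.46, adjusted p = 0.00469), respectively. In methyltransferase RNA, they were -4.36 (SE 0.55, adjusted p = 2.8e-04) and 1.52 (SE 0.45, adjusted p = 0.0486), and the latter call was lost in 12 of 18 alternatives. Over the run, the 4 sequences of 41 nt and over summed to 716 and 585, 36 and 11, 889 and 1557, and 124 and 60 counts. The 32 sequences of up to 33 nt summed to 629 and 504, 1585 and 1035, 680 and 925, and 1143 and 923 counts. The sum of the short forms was higher after oxidation in control RNA with no overlap, while in methyltransferase RNA the groups overlapped.

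The most marked 1-base difference was in U3, the abundant snoRNA that guides early cleavage of the ribosomal RNA precursor. The 21-nt seq1793 matches 5 U3-type genes, among them Rnu3b1 at chr11:87443312-87443332 (GRCm38, plus strand, from base 76 of the RNA). It had 1089 and 1226 counts in control non-oxidized RNA, 16 and 9 in control oxidized RNA, 904 and 1230 in methyltransferase non-oxidized RNA and 8 and 7 in methyltransferase oxidized RNA. The 20-nt seq1792, which lacks the final G, had 10 and 13, 177 and 58, 19 and 28, and 77 and 28 counts. The longer form was high without oxidation and low with it, while the shorter form was high in oxidized control RNA. Their ratio, longer over shorter, was 109 and 94.3 in control non-oxidized RNA and 0.0904 and 0.155 in control oxidized RNA, and 47.6 and 43.9 against 0.104 and 0.250 in methyltransferase RNA. With oxidation in control RNA, seq1793 fell by 6.92 on the log2 scale (SE 0.47, edgeR adjusted p = 4.5e-07) and seq1792 rose by 2.87 (SE 0.61, adjusted p = 0.00153).

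The 3′ end of U3 was nearly lost in every oxidized library. The 23-nt seq4772, at chr11:87443429-87443451 in Rnu3b1, had 1602 and 1539 counts in control non-oxidized RNA, 0 and 3 in control oxidized RNA, 1479 and 2032 in methyltransferase non-oxidized RNA and 15 and 3 in methyltransferase oxidized RNA. It fell by 10.24 with oxidation in control RNA (SE 0.91, edgeR adjusted p = 2.3e-06) and fell by 7.89 in methyltransferase RNA (SE 0.78, adjusted p = 4.9e-05). Its plasmid difference in oxidized RNA did not pass the test (log2 fold change 2.48, SE 0.96, adjusted p = 0.0542).

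**Figure D2:**
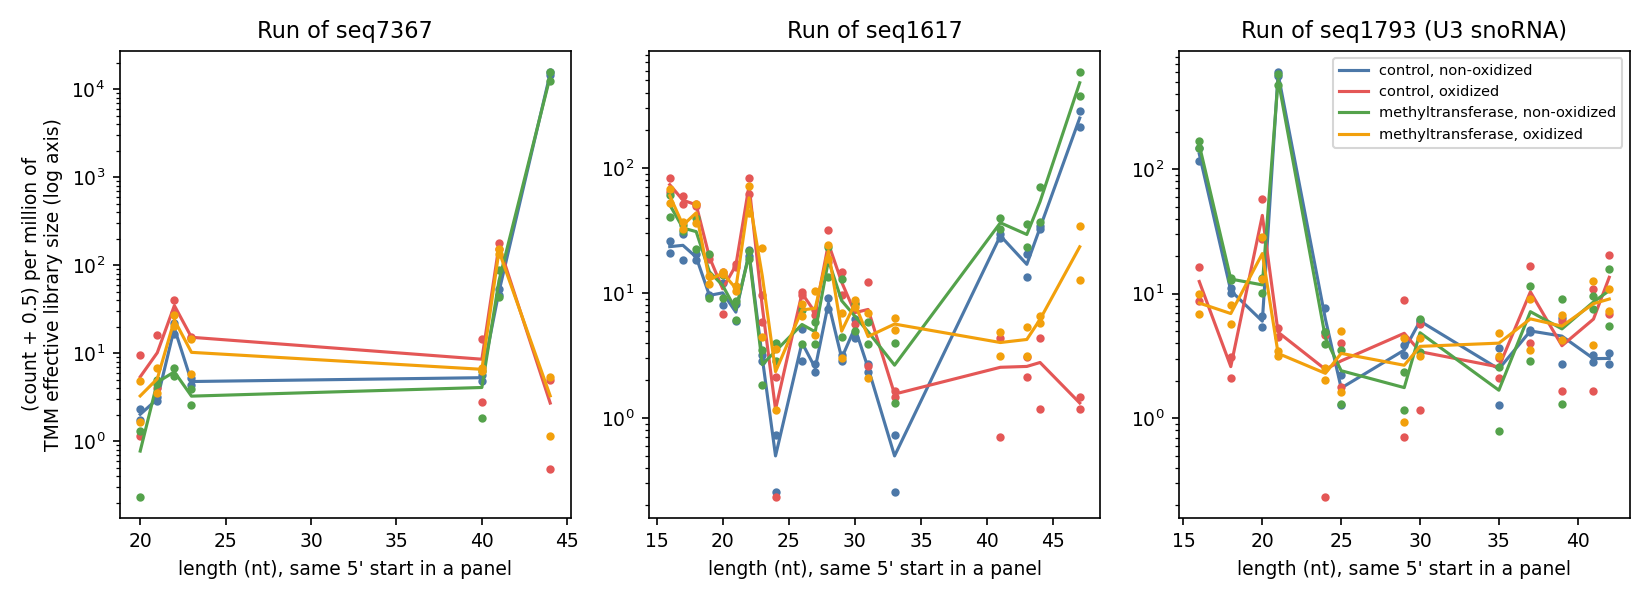
Level of sequences with a common 5′ start against their length (nt, x axis), as count plus 0.5 scaled to the TMM effective library size, on a log axis, for 3 runs; points are the 8 libraries and lines the means of 2. The longest form in the runs of seq7367 and seq1617, and the 21-nt form in U3, are highest in non-oxidized RNA, while forms such as the 22-nt seq1604 and the 20-nt seq1792 are highest in oxidized RNA.

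Over all members, 183 pairs differed by 1 base at the 3′ end, and both sequences of 167 pairs were fitted. The difference between their log2 fold changes with oxidation had a median size of 0.91 in control RNA. It was over 2 in 25 pairs in control RNA and in 17 pairs in methyltransferase RNA.

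With oxidation in control RNA, 45 of the 664 members fitted rose and 83 fell (edgeR, adjusted p under 0.05). Of all 9851 sequences fitted, 18.4% rose and 46.4% fell, against 6.78% and 12.5% of the members. The median log2 fold change was 0.32 over the members and -1.14 over all sequences. The members called were spread over several runs: 6 of the 45 were of the seq7367 run and 6 of the run of seq1617. Of the 83, 15 were of the TG-repeat run, 8 of the run of seq4961, 5 of the Snord50 run and 5 of the 18S 5′ end. This comparison depends on the scaling. Against total listed counts, the median of all sequences shifted by 4.34 on the log2 scale, and 557 members rose and 21 fell, where 52.8% and 23.7% of all sequences did. Under DESeq2's own test 16 rose and 106 fell of 762 (8.49% and 47.1% of all sequences). With at least 10 counts required in every library, 9 of 78 members rose and 5 fell (8.47% and 19.4% of all 1193 sequences).

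With oxidation in methyltransferase RNA, 4 members rose and 41 fell (edgeR, adjusted p under 0.05), where 1.77% and 11.2% of all sequences did. Among the falling ones, 6 were of the run of seq1617, 5 of that of seq4961, 4 of the 18S 5′ end, and 3 each of U3's 3′ end and of the Snord14c and Snord14d run. The 4 that rose included 2 of the seq7367 run. Against total listed counts, 25 rose and 19 fell, where 10.2% and 6.4% of all sequences did. Under the filter of 10 counts in every library, 5 of 78 members rose and 5 fell (3.44% and 12.5% of all sequences).

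Before oxidation, no member differed between the plasmids at an adjusted p under 0.05 by edgeR, and 0% of all sequences did. At an unadjusted p under 0.05, 30 members were higher and 8 lower with the methyltransferase (3.98% and 4.73% of all sequences). DESeq2's test called 1 higher and 0 lower of the 122 members to which it gave an adjusted p (1.02% and 2.29% of all 3718 such sequences).

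After oxidation, 33 members were higher with the methyltransferase than with the control plasmid and 15 were lower (edgeR, adjusted p under 0.05). Of all sequences fitted, 42.3% were higher and 3.92% lower, against 4.97% and 2.26% of the members. The median log2 fold change was 0.06 over the members and 0.82 over all sequences. Because sequences had to be present in oxidized methyltransferase RNA to be listed, calls in the higher direction are favoured by the listing. With at least 10 counts in every library, 0 of 78 members were higher and 1 was lower (5.03% and 0.335% of all sequences). The authors' deposited table calls 67 of 762 members higher with the methyltransferase and 0 lower at its adjusted p under 0.05, against 46.2% and 0.994% of all sequences. Against total listed counts, 16 members were higher and 436 lower (27.8% and 48.7% of all sequences). Of the 33, 15 were of the TG-repeat run, 5 of the Snord50 run and 5 of the run of seq4961, and the other 8 were spread over smaller sets.

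The TG-repeat run held 25 sequences of 17 to 27 nt, of which 24 begin with the same 8 bases as miR-574-5p and so share its seed. Mir574 lies at chr5:64970318-64970395 (GRCm38.p6). In the mature miRNA, 6 TG units stand between TGAG and the following AG, while 14 members had 5 such units, 8 had 7 and 2 had 4. None matched the annotated miRNA exactly, and their genomic matches ranged from 20 to 1544. They occur among others within transcripts of Rapgefl1, Tgfbi and Tmem201. The 14 sequences with 5 units summed to 829 and 1165 counts in control non-oxidized RNA, 12 and 9 in control oxidized RNA, 774 and 774 in methyltransferase non-oxidized RNA and 1270 and 742 in methyltransferase oxidized RNA. The 8 with 7 units summed to 78 and 139, 2 and 1, 84 and 58, and 194 and 87 counts. Both sums were lowest in oxidized control RNA and remained in oxidized methyltransferase RNA. These are raw counts, and the oxidized control libraries held the fewest listed counts (438363 and 295094). Relative to listed counts, the whole run was also lowest there, but the fall was smaller than in raw counts. With oxidation in control RNA, 15 of the 15 fitted sequences were called lower by TMM scaling. Against total listed counts, 6 of the 15 were (46.4% and 23.7% of all sequences, respectively).

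The most abundant of them, seq9564 (19 nt, 1279 genomic matches), had 335 and 482 counts in control non-oxidized RNA, 0 and 0 in control oxidized RNA, 315 and 305 in methyltransferase non-oxidized RNA and 437 and 276 in methyltransferase oxidized RNA. With the oxidized control libraries set at 3 counts each, it was at least 122-fold higher with the methyltransferase after oxidation (TMM scaling, edgeR adjusted p = 2.1e-06), and at least 14.9-fold higher against total listed counts. The 21-nt seq9568 had 117 and 139, 0 and 0, 117 and 98, and 230 and 138 counts, which is at least 62.7-fold higher (adjusted p = 4.9e-06). Oxidation left the 2 sequences near their earlier level in methyltransferase RNA: seq9564 gave a log2 fold change of -0.08 (SE 0.40, adjusted p = 0.923).

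All 15 sequences of this run that were fitted were called higher after oxidation with the methyltransferase (42.3% of all sequences). Against total listed counts, 11 of the 15 were (27.8% of all sequences). Sequences at 0 in the control pass the filter through the other groups, so these counts are a description. In 21 of the 25, both oxidized control libraries had 0 counts. The 9 sequences with a miR-574-5p hit in the table, which are not members, summed to 6787 and 9326 counts in control non-oxidized RNA, 66 and 48 in control oxidized RNA, 4272 and 6179 in methyltransferase non-oxidized RNA and 3583 and 2277 in methyltransferase oxidized RNA. The 25 members together had 924 and 1313, 14 and 10, 868 and 844, and 1503 and 844 counts in the same libraries. Whether these reads came from the repeats named or are miR-574-5p reads with a changed repeat number was not tested.

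The Snord50 run held 6 near-complete snoRNAs of the box C/D type, which guide 2′-O-methylation of ribosomal RNA. The 74-nt seq950 lies at chr9:88521527-88521600 (GRCm38, minus strand), at Snord50a in an intron retained in a transcript of Snhg5, a host gene of snoRNAs. The 74-nt seq945 lies at chr9:88521795-88521868 at Snord50b, and also matches chr9:88857691-88857764 in 9330159M07Rik. The pair differs by 1 base, C50A, with positions counted from the 5′ end and seq950 given first.

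Sequence seq950 had 690 and 734 counts in control non-oxidized RNA, 0 and 0 in control oxidized RNA, 704 and 807 in methyltransferase non-oxidized RNA and 77 and 76 in methyltransferase oxidized RNA. Sequence seq945 had 573 and 607, 0 and 0, 628 and 638, and 74 and 68 counts. Both were absent from oxidized control RNA and kept a part of their counts in oxidized methyltransferase RNA. After oxidation, seq950 was at least 26.8-fold higher with the methyltransferase (TMM scaling, oxidized control at 3 counts per library, edgeR adjusted p = 6.3e-06) and at least 3.29-fold higher against total listed counts. For seq945 the same bounds were at least 24.7-fold higher (TMM scaling, edgeR adjusted p = 7.0e-06) and, against total listed counts, at least 3.04-fold higher. In methyltransferase RNA, oxidation lowered seq950 by a log2 fold change of -3.55 (SE 0.41, adjusted p = 2.4e-04) and seq945 by -3.41 (SE 0.41, adjusted p = 3.0e-04).

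The forms with 1 more A at the 3′ end were also at 0 in oxidized control RNA, but in methyltransferase RNA their changes with oxidation were smaller. The 75-nt seq951 had 60 and 67 counts in control non-oxidized RNA, 0 and 0 in control oxidized RNA, 139 and 153 in methyltransferase non-oxidized RNA and 123 and 119 in methyltransferase oxidized RNA. The 75-nt seq946 had 71 and 63, 0 and 0, 100 and 115, and 101 and 81 counts. These changes did not pass the test, with log2 fold changes of -0.52 (SE 0.42, edgeR adjusted p = 0.484) and -0.50 (SE 0.43, adjusted p = 0.51). The ratio of seq951 to seq950 was 0.0870 and 0.0913 in control non-oxidized RNA, 0.197 and 0.190 in methyltransferase non-oxidized RNA and 1.60 and 1.57 in methyltransferase oxidized RNA. The ratio of seq946 to seq945 was 0.124 and 0.104, 0.159 and 0.180, and 1.36 and 1.19 in these groups. Neither ratio could be given in oxidized control RNA, where all counts were 0. The ratios are descriptions, chosen after the values were seen.

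**Figure D3:**
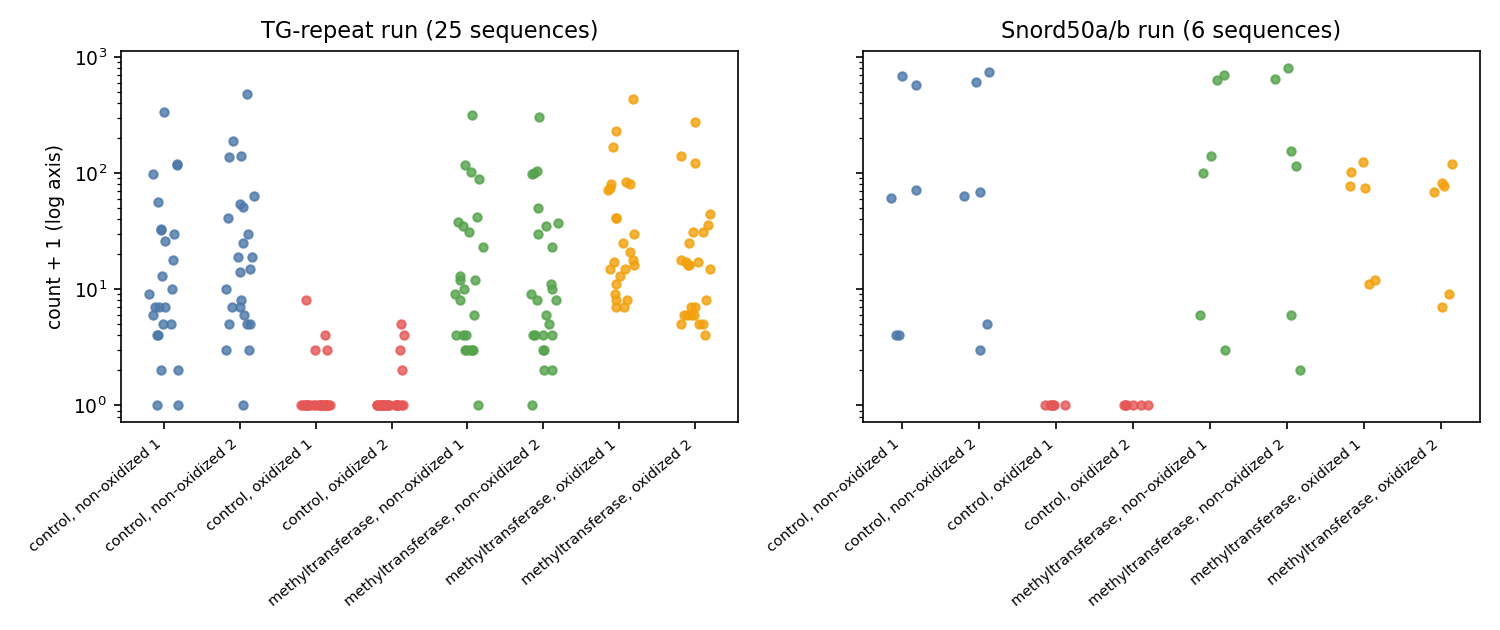
Count plus 1 (log axis) of each sequence of the TG-repeat run (left, 25 sequences) and the Snord50a/b run (right, 6 sequences) in each of the 8 libraries (x axis). Points of both runs sit at or near 0 counts in the 2 oxidized control libraries, and most are higher in the other libraries.

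The run of seq4961 held 12 sequences with up to 192 genomic matches, some of them in gene models of miRNA type. Its 36-nt seq4961 had 102 and 121 counts in control non-oxidized RNA, 13 and 1 in control oxidized RNA, 83 and 118 in methyltransferase non-oxidized RNA and 14 and 12 in methyltransferase oxidized RNA. With oxidation it fell by 4.45 in control RNA (SE 0.70, edgeR adjusted p = 1.7e-04) and fell by 3.19 in methyltransferase RNA (SE 0.65, adjusted p = 0.00659), the latter call lost without either oxidized methyltransferase replicate (-3.16 and -3.06). The first value was -0.07 against total listed counts. Its plasmid difference after oxidation did not pass the test (log2 fold change 1.08, SE 0.70, adjusted p = 0.255). Of the 9 fitted sequences of the run, 5 were called higher with the methyltransferase after oxidation (42.3% of all sequences). Against total listed counts, 0 of the 9 were higher and 3 lower (27.8% and 48.7% of all sequences). With only the libraries compared, 0 of 3 were called.

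Of the 15 members lower with the methyltransferase after oxidation, 6 were fragments of mt-Ts2, a mitochondrial serine tRNA. The run held 14 sequences that begin at the first base of the gene, at chrM:11613. Its most abundant one, the 19-nt seq157 (chrM:11613-11631), had 168 and 234 counts in control non-oxidized RNA, 472 and 395 in control oxidized RNA, 100 and 262 in methyltransferase non-oxidized RNA and 179 and 173 in methyltransferase oxidized RNA. The oxidized control libraries were the highest of the 8. The plasmid difference did not pass the test for seq157 (log2 fold change -1.21, SE 0.46, edgeR adjusted p = 0.0516) and did for the 26-nt seq164 (-1.57, SE 0.50, adjusted p = 0.0208). All 14 sequences summed to 1011 and 1717, 2347 and 1872, 633 and 1521, and 909 and 771 counts. The 6 calls among the 14 (3.92% of all sequences were called lower) depended on the settings. Of the 14, 1 was called lower without oxidized methyltransferase replicate 1, 0 without replicate 2, 3 without control oxidized replicate 1 and 1 without control oxidized replicate 2. None was called with DESeq2 size factors, by DESeq2's test, with only the libraries compared, at an adjusted p under 0.01 or, of 11 fitted, with at least 10 counts in every library. With upper quartile scaling 13 were called lower, where 1876 of all 9851 sequences were. Against total listed counts 14 were, where 48.7% of all sequences and 65.7% of the members were.

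The other mitochondrial serine tRNA, mt-Ts1, gave a run of 8 sequences that summed to 314 and 303, 415 and 182, 312 and 299, and 268 and 162 counts. No sequence of that run was called between the plasmids.

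**Figure D4:**
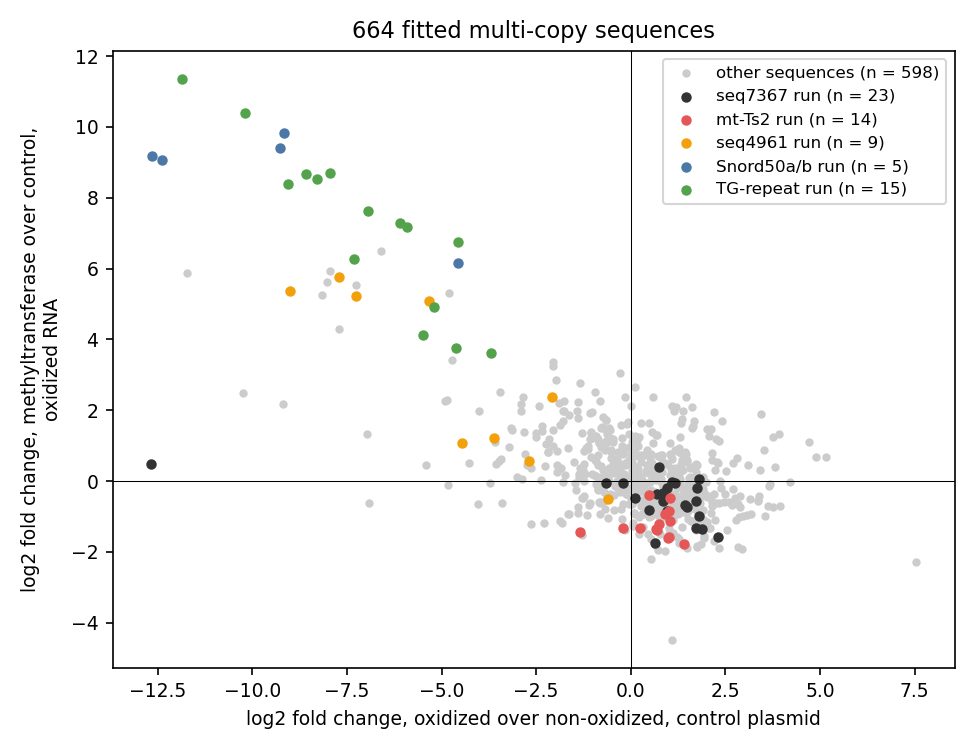
Log2 fold change between the plasmids in oxidized RNA (y axis) against log2 fold change with oxidation in control RNA (x axis) for the 664 fitted sequences, with 5 runs coloured. Both axes use the 2 oxidized control libraries, so a trend from upper left to lower right is built in; the TG-repeat and Snord50 runs lie at the upper left and seq7367 at the far left near 0.48 on the y axis.

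The 314 sequences of the 18S locus, at chr17:39846354-39848202 in RefSeq (Rn18s-rs5, 1849 bases), were the largest source class. GENCODE places its ribosomal RNA model CT010467.1 on the other strand, and the members match its reverse complement. Of the 314, 48 began at position 1 of the RNA, with lengths from 16 to 80 nt, and 266 began elsewhere. The most abundant was the 21-nt seq6283 at position 1, with 73 and 330 counts in control non-oxidized RNA, 124 and 150 in control oxidized RNA, 274 and 120 in methyltransferase non-oxidized RNA and 27 and 376 in methyltransferase oxidized RNA. The 2 replicates were far apart in 3 of the groups, and the ranges of all 4 groups overlapped. Its change with oxidation in control RNA did not pass the test (log2 fold change -0.85, SE 1.00, edgeR adjusted p = 0.472).

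Replicates differed over the whole class. Scaled by TMM, the summed level in replicate 2 was 1.16 times that of replicate 1 in control non-oxidized RNA, 1.98 times in control oxidized RNA, 0.727 times in methyltransferase non-oxidized RNA and 4.49 times in methyltransferase oxidized RNA. In oxidized methyltransferase RNA, the class took 16.4% of member counts in replicate 1 and 44.0% in replicate 2. Of 277 fitted, 2 were called higher and 0 lower between the plasmids after oxidation (42.3% and 3.92% of all sequences). With oxidation in control RNA, 15 rose and 16 fell (18.4% and 46.4% of all sequences). The 31-nt seq6477, which also matches Gm42418, was the one named among the highest rises (2 and 5, 49 and 71, 101 and 30, 12 and 241 counts; log2 fold change 3.76 in control RNA, SE 1.32, edgeR adjusted p = 0.0262). Its call was lost at an adjusted p under 0.01, without either control non-oxidized replicate or without control oxidized replicate 2, with log2 fold changes from 3.13 to 4.49.

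**Figure D5:**
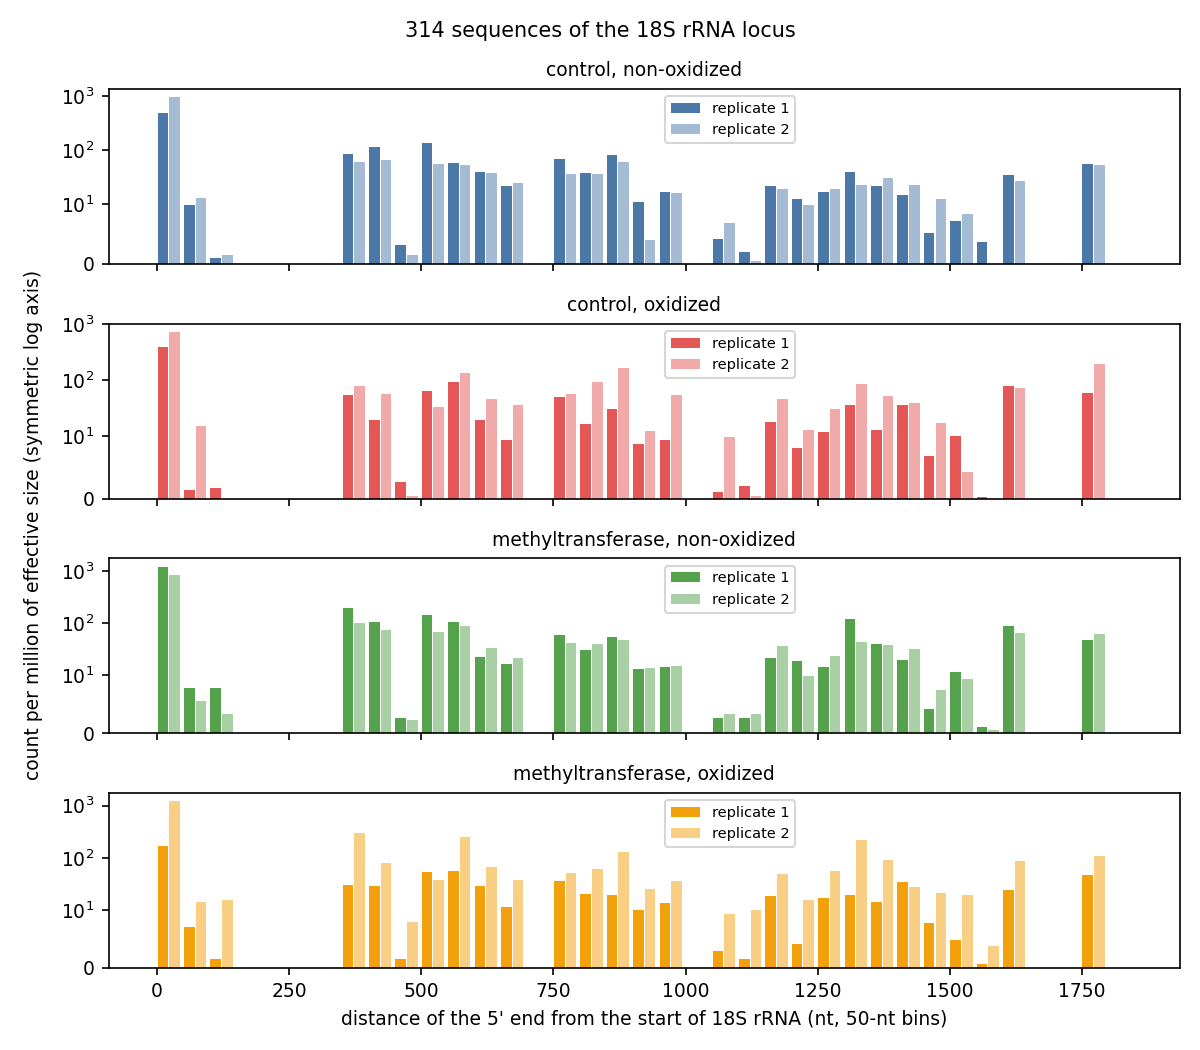
Summed count scaled to the TMM effective library size (symmetric log axis) of the 314 sequences of the 18S locus by the distance of their 5′ end from the start of the RNA (50-nt bins, x axis), in 4 panels for the groups with dark and pale bars for replicates 1 and 2. The first bin is the tallest in every group, and replicate 2 of the oxidized methyltransferase group is above replicate 1 in most bins.

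The 5S run held 53 sequences, of which 36 were fitted. With oxidation in control RNA, 1 rose and 2 fell (edgeR, adjusted p under 0.05), where 18.4% and 46.4% of all sequences did. The 46-nt seq5366, the most abundant, shares 45 of its 46 bases in a row with annotated 5S RNA models, while its full sequence matches a transcript of Tmem38b on chromosome 4. It had 909 and 502 counts in control non-oxidized RNA, 3 and 0 in control oxidized RNA, 1369 and 1437 in methyltransferase non-oxidized RNA and 5 and 8 in methyltransferase oxidized RNA. With oxidation it fell by 9.18 in control RNA (SE 0.79, edgeR adjusted p = 1.8e-06) and fell by 7.96 in methyltransferase RNA (SE 0.70, adjusted p = 3.4e-05). The other 52 sequences of the run summed to 217 and 204, 297 and 306, 298 and 377, and 387 and 329 counts, with no such fall in the sum. Among them, the 74-nt seq5520 (9 and 17, 4 and 5, 16 and 27, 4 and 7 counts) was called lower and the 30-nt seq6088 (1 and 1, 17 and 9, 2 and 5, 4 and 12) higher in control RNA, both named after their values were seen. Their most abundant annotated one, seq5517 (39 nt), had 18 and 18, 18 and 28, 34 and 28, and 18 and 18 counts.

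The 2 runs that follow differed between replicates. The 16-nt seq4507 (26 genomic matches, no transcript) had 211 and 18 counts in control non-oxidized RNA, 763 and 5 in control oxidized RNA, 128 and 17 in methyltransferase non-oxidized RNA and 15 and 12 in methyltransferase oxidized RNA. Its call between the plasmids after oxidation (log2 fold change -4.48, SE 1.68, edgeR adjusted p = 0.0473) turned to 1.21 without control oxidized replicate 1 and was lost in 6 of 17 alternatives. The run of Snord14c and Snord14d, snoRNAs in introns of Hspa8, was high in replicate 1 of both non-oxidized groups. Its 3 sequences of 16 to 18 nt summed to 1686 and 437, 62 and 46, 1374 and 278, and 65 and 27 counts, and all fell in both oxidized groups. Its 6 sequences of 20 nt and over summed to 155 and 87, 106 and 98, 127 and 88, and 112 and 56 counts.

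The remaining classes were low. The 16-nt seq4500 of 7SL RNA, the RNA of the signal recognition particle, had 76 and 64, 116 and 203, 89 and 134, and 53 and 195 counts in the 4 groups in the order used above. The 38-nt seq1869 of small nuclear RNA type had 8 and 6, 16 and 20, 4 and 4, and 4 and 8 counts, and the 16-nt seq1938 of Rny1 had 14 and 5, 25 and 29, 2 and 10, and 26 and 14. The 16-nt seq11136, antisense to a transcript, had 33 and 32, 77 and 45, 26 and 24, and 41 and 34. None of these 4 was called between the plasmids after oxidation. The 16-nt seq10314, which matches a retained intron of the ribosomal protein gene Rpl13, had 64 and 57, 99 and 109, 37 and 22, and 34 and 36 counts and was lower with the methyltransferase after oxidation (log2 fold change -1.50, SE 0.50, edgeR adjusted p = 0.0275), a call lost in 8 of 18 alternatives, among them leaving out control oxidized replicate 2 or either oxidized methyltransferase replicate (-1.17 to -1.32).

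By genomic matches, the sequences with over 100 matches stood out, and 18 of these 28 are of the TG-repeat run. Without seq7367, they took 6.30% and 8.86% of member counts in control non-oxidized RNA, 0.310% and 0.138% in control oxidized RNA, 5.47% and 5.21% in methyltransferase non-oxidized RNA and 12.8% and 5.69% in methyltransferase oxidized RNA. The oxidized control libraries were the lowest. Of the 20 fitted, 14 were higher with the methyltransferase after oxidation (42.3% of all sequences fitted). The median log2 fold change of the class was 5.15, which depends on the prior count where the control is at 0. Sequences at 0 in the control pass the filter through the other groups, so these values are a description. The number of matches was not tested apart from the TG-repeat run. The medians of the other 4 classes lay between -0.21 and 0.19.

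By length, the shares without seq7367 differed less. Sequences of 16-19 nt took 32.9% and 27.9%, 37.6% and 37.2%, 28.2% and 21.8%, and 32.2% and 30.4% of member counts in the 4 groups. Those of over 50 nt took 10.6% and 13.3%, 3.67% and 3.42%, 13.7% and 13.8%, and 6.63% and 9.40%. The longest class was thus lower in both oxidized groups. It summed to 1954 and 2331, 581 and 447, 2672 and 2986, and 734 and 1402 counts. The Snord50 run held 1400 and 1477, 0 and 0, 1578 and 1719, and 396 and 358 of these counts. This run thus carried much of the fall. After oxidation, 10 of the 42 fitted sequences of the class were higher with the methyltransferase (42.3% of all sequences fitted), 5 of them of the Snord50 run. By the last base, sequences ending in A took 24.1% and 23.1% in control non-oxidized RNA and 14.3% and 15.9% in control oxidized RNA, and those ending in C took 20.9% and 23.5% against 30.9% and 32.0%. In methyltransferase RNA, those ending in A took 23.3% and 24.5% before and 16.1% and 14.5% after oxidation, while for C the groups overlapped, with 21.5% and 25.5% against 25.4% and 28.8%. Those ending in T took 29.0% and 26.4%, 33.9% and 31.9%, 28.77% and 25.04%, and 39.7% and 32.8% in the 4 groups, and those ending in G took 26.0% and 27.1%, 20.97% and 20.24%, 26.38% and 24.96%, and 18.8% and 23.8%. The class ending in A summed to 4441 and 4038, 2262 and 2079, 4559 and 5305, and 1779 and 2169 counts. Of these, seq4772 alone held 1602 and 1539, 0 and 3, 1479 and 2032, and 15 and 3. This 1 sequence thus carried much of the fall for A.

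By the interaction test, oxidation acted more upwards with the methyltransferase in 31 members and more downwards in 7 (edgeR, adjusted p under 0.05), against 39.6% and 3% of all sequences. Of the 31, 15 were of the TG-repeat run, 5 of the Snord50 run and 3 of the run of seq4961. Against total listed counts, 14 were higher and 362 lower (20.2% and 41.7% of all sequences), and with at least 10 counts in every library 0 of 78 members passed in either direction (4.61% and 0.168% of all sequences).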

How the data were processed

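Per the labels' protocols, small RNA libraries of MIN6B1 cells were prepared with the QIAseq miRNA kit. The authors deposited 1 table of read sequences. Per the file headers it gives a count per sequence in each of 8 libraries, a signal (the authors' normalized count), the number of genomic matches, and for 2 of the authors' comparisons a signed fold change (a score, of which only the sign was used) and an adjusted p-value. Aligner, genome build, trimming and use of molecular identifiers are not given in the sources used here. The deposited signal and 8 further columns of log-scaled values per library entered no result, and the deposited scores and p-values were used only to count the authors' calls.

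The 12608 lines were merged to 11568 distinct sequences. The members and the lists were chosen with earlier results of these data known. Members were matched exactly, in sense and antisense, to GENCODE M21 transcripts (GRCm38), and miR-574-5p was taken from RefSeq. Sequences with a chromosome 18 match (12) are not printed.

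Counts were fitted with edgeR 4.0.16 under R 4.3.3, using the quasi-likelihood test after TMM scaling and filterByExpr, in 1 model of 4 groups over 8 libraries and all 9851 sequences that passed the filter, of which 664 were members (98 were not fitted). Sequences were called at 0.05 on p-values adjusted by Benjamini-Hochberg over all sequences fitted. TMM effective sizes ranged from 1910654 to 3083230. Where a group had 0 counts, the fold is a bound with that group at 3 counts per library. Named sequences are the most abundant of each length, genomic-match and source class, the 8 most abundant, and for each contrast the 3 highest and 3 lowest called with a mean count of at least 50, with overlapping sequences named once. Sequences seq945, seq946, seq951, seq9568, seq1598, seq1617, seq1793, seq7366, seq4730, seq164 and the pair ratios were added or singled out after values were seen. On simulated counts, 119 of 200 sequences changed 8-fold (59.5%) were called in the right direction in the oxidized plasmid comparison, with 4 unchanged sequences called. The 200 were drawn only from the more abundant of the 9851 sequences, above a floor of mean simulated count. Apart from these changes, the simulation gave all libraries the same composition and all sequences the same spread, unlike the data. The rate for rarer sequences and for the members alone was not tested. Of the 762 members, 480 had a mean of fewer than 10 counts per library. Alternatives were DESeq2 1.42.0, other scalings and filters, only the libraries compared, a replicate block, leaving out each library, and leaving out seq7367, which was added after the data were seen.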

Additional observations from a re-analysis of the deposited data

Results flagged for a closer look

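For 7 of the named sequences, the interaction term of the edgeR quasi-likelihood fit gave an unequal change with oxidation for the 2 plasmids (8 libraries, adjusted over all 9851 sequences). The values are methyltransferase minus control on the log2 scale. For the TG-repeat sequences these were 11.77 for seq9564 (SE 0.94, adjusted p = 6.8e-06) and 10.66 for seq9568 (SE 1.02, adjusted p = 1.8e-05). For the Snord50 forms they were 9.11 for seq950, 8.98 for seq945, 8.76 for seq946 and 8.66 for seq951, with adjusted p between 2.7e-05 and 7.5e-05. All 6 had 0 counts in both oxidized control libraries, so these fitted sizes depend on the prior count and give only the direction. For the 28S-type sequence seq1617 the value was 3.35 (SE 0.82, adjusted p = 0.00551), and it was -0.0934 against total listed counts.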

How the results depend on the processing

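All counts here are of members called, with the reported value first. Shares of all sequences that stand in the results above are not repeated. With total listed counts as the scaling, after oxidation between the plasmids 33 became 16 higher and 15 became 436 lower; with oxidation in control RNA 45 became 557 and 83 became 21; in methyltransferase RNA 4 became 25 and 41 became 19; in the interaction 31 became 14 and 7 became 362. In the same order for upper quartile scaling, lower calls after oxidation were 93 (1876 of all 9851 sequences). Control RNA gave 301 and 45 (3900 and 3948 of all). Methyltransferase RNA gave 21 and 24 (863 and 700), and 48 were lower in the interaction (1107). DESeq2 size factors gave 2 lower after oxidation (174 of all 9851 sequences) and 26 rising in control RNA (1326). They gave 1 rising in methyltransferase RNA (162) and 3 lower in the interaction (152). The DESeq2 Wald test gave 67 higher and 0 lower after oxidation (5344 and 115 of all 11568 sequences). It gave 1 higher before oxidation (38 of 3718 with an adjusted p). In control RNA 16 rose (982 of 11568) and in the interaction 1 was lower (108).

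With at least 10 counts in every library (78 members), the counts were 0 higher and 1 lower after oxidation, 9 and 5 in control RNA, 5 lower in methyltransferase RNA, and 0 and 0 in the interaction. Without a filter, 82 were higher after oxidation, 1 rose in methyltransferase RNA and 52 were higher in the interaction. In all 11568 sequences, these counts were 5625, 143 and 4719. With only the libraries compared, 1 was lower after oxidation (75 of 6880 sequences) and 20 rose in control RNA (1231 of 7550). At an adjusted p under 0.01, 0 were lower after oxidation and 14 rose in control RNA (68 and 936 of all 9851 sequences). In methyltransferase RNA 0 rose and 21 fell (13 and 708), and 1 was lower in the interaction (50). The cause of these shifts was not tested. When a library was left out, the filter was applied anew, so 700 to 737 members were fitted in place of 664.

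Leaving out each library gave 46 to 73 higher and 2 to 19 lower after oxidation, 15 to 51 and 70 to 111 in control RNA, 0 to 3 and 15 to 41 in methyltransferase RNA, and 31 to 45 and 2 to 22 in the interaction; a lone library is then assumed to vary like the other groups. The 15 lower calls fell to 3 and 2 without methyltransferase oxidized replicate 1 and 2, and to 8 without control oxidized replicate 2. The 45 rising calls fell to 21 and 15 without control non-oxidized replicate 1 and 2.

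Across sequences, the correlation of same-numbered deviations ranged from -0.0104 to 0.561 over the 6 pairs of groups (2481 sequences with a mean count of at least 50). The highest value was between the 2 non-oxidized groups, where same-numbered libraries shared part of their deviations. The next highest was 0.144. Over the 60 members among these sequences, the correlation ranged from -0.307 to 0.482, highest for the same 2 groups. It was over 0.1 in 5 of the 6 pairs. Replicate numbers were thus not shown to pair libraries across all 4 groups. With the replicate number as a block, the counts were 34 higher and 21 lower after oxidation (4192 and 459 of all 9851 sequences). In control RNA they were 53 and 88 (1836 and 4603) and in methyltransferase RNA 6 and 44 (213 and 1172). The interaction gave 32 and 9 (3999 and 335), and 0 were called before oxidation. Of the single sequences, seq4507 turned to 1.21 without control oxidized replicate 1 (range from -5.50 to 1.21 over the libraries left out), and the interaction of seq1617 turned to -0.0934 with total listed counts. Of 711 alternative values over 42 single-sequence results, 673 kept their direction and call, 36 lost the call and 2 turned.

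The members' share of listed counts averaged 0.809% in control non-oxidized RNA, 1.16% in methyltransferase non-oxidized RNA and 0.484% in methyltransferase oxidized RNA. Counting every line of the table gave 0.385%, 0.569% and 0.230%, leaving out seq7367 gave 0.304% and 0.492% in the non-oxidized groups, and keeping the excluded sequences gave 1.23% in methyltransferase non-oxidized RNA. Leaving out 1 library, the share was 0.744% to 0.873%, 3.61% to 4.43%, 1.13% to 1.18% and 0.358% to 0.610% in the 4 groups. Sequences with under 10 counts in a library limit what this depth can show.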
